A study of Caenorhabditis elegans with 6 samples.

Results

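Vacuolar ATPase subunit genes with a called peak were examined in immunoprecipitates of MBL-1, the muscleblind protein of Caenorhabditis elegans. In the membrane sector, V0, the genes were vha-2, vha-3, vha-5 and vha-16, and in the catalytic sector, V1, they were vha-8 and vha-11. They were chosen by the position of the deposited peak summits, at least 1 of which lay inside the annotated span of each gene, so holding a peak is how they were selected and is no finding. They are 6 of 21 annotated subunit and accessory genes of the pump, and they held 8 of the 459 summits in the lists. Among all annotated coding genes 0.831% held a summit, or 0.686% when summits at small structured RNA genes were left out.

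The vacuolar ATPase is a rotary pump that uses ATP to move protons into lysosomes, endosomes and secretory vesicles, or out across the apical membrane of some epithelia. Its V1 sector lies in the cytosol and hydrolyses ATP, and its V0 sector lies in the membrane and carries the protons. In nematodes the pump is abundant in the intestine, the hypodermis and the excretory canal. Muscleblind proteins are zinc-finger proteins that bind RNA and regulate alternative splicing.

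The 6 samples came from whole larvae at the L4 stage, synchronized by bleaching and grown at 20 °C on OP50 bacteria. All carried the genotype mbl-1c(syb5299), under which the labels' design text places a 3xFLAG tag on MBL-1, so both groups share the tagged allele. The groups were 3 RNA input samples, taken before precipitation, and 3 IP samples, recovered with an anti-FLAG antibody. Each deposited peak list, numbered here 1, 2 or 3, compares the IP of that replicate number with its own input. An IP from untagged animals was not analysed here, and the labels do not say whether replicates came from separate cultures, so the spread between lists may be technical.

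Depth was low in all libraries. After removal of tags at the same position, the IP libraries held 39033 to 49827 tags and the input libraries 30707 to 38364 tags. Lists 1, 2 and 3 held 109, 151 and 199 summits. Where the input was at the genome-wide background, the smallest number of IP tags that met the caller's p of 0.001 was 4 in lists 1 and 2 and 3 in list 3, where 4 of the 6 members had their sole summit. The summits of these 4 genes rested on 4 tags at vha-5, 5 at vha-11, 12 at vha-8 and 14 at vha-3. At vha-8 and vha-3 the input was above the background. The part of the lower minimum of list 3 in the spread of members over lists was not tested.

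The membrane sector supplied 4 of the 6 genes and 6 of the 8 summits, of which 3 were at vha-16, 1 in each list. Of 10 annotated V0 genes, vha-2, vha-3, vha-5 and vha-16 had a summit, and of 9 annotated V1 genes, vha-8 and vha-11 had one. The accessory genes vha-19 and vha-20 had none. By list, 1 member had a summit in list 1, 2 in list 2 and 5 in list 3. The share of all 19983 annotated coding genes with a summit was 0.37% in list 1, 0.465% in list 2 and 0.636% in list 3, and nothing is read from this contrast, because it chose the members. All V1 summits were in list 3.

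Of the 6 members, vha-16 had a summit in all 3 lists, vha-2 in list 2 alone, and vha-3, vha-5, vha-8 and vha-11 in list 3 alone. A summit in at least 2 lists was thus held by 1 of 6 members, or 16.7%. Among all annotated coding genes 0.41% had a summit in at least 2 lists (0.285% without summits at small structured RNA genes) and 0.23% in all 3. Among the 137 coding genes with a summit outside small structured RNA genes, members included, 57 had one in at least 2 lists, or 41.6%. The lists give no value where no peak was called, so the level of a member in a list without its summit is unknown.

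The gene vha-16 encodes the d subunit of V0, which links the proteolipid ring to the central stalk. It lies on chromosome I at 5079910 to 5082279 (WBcel235). Its summit rested on 5 IP tags in each of lists 1, 2 and 3, for which the 95% Poisson limits are 1.62 and 11.7. These limits, here and for the other genes, reflect counting error alone. The number of tags was therefore the same in every list. The local input level, in tags expected over the summit, was 0.22 in list 1, 0.261 in list 2 and 0.184 in list 3. The values of lists 1 and 3 equal the genome-wide background, so their folds have no measured denominator, and that of list 2 equals 13 input tags within 10000 bp.

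The fold enrichment of vha-16, given by the authors as IP pileup over input level with 1 added to each, was 4.67 in list 1, 3.85 in list 2 and 3.94 in list 3, with a mean of 4.15 ± 0.448 (SD, n = 3). The caller's q was 0.0184 in list 1, 0.279 in list 2 and 0.146 in list 3. Only the summit of list 1 thus had a q of at most 0.05. Of 46 coding genes with a summit in all 3 lists, 43 had a higher mean fold than vha-16 and 2 a lower one, with the highest summit per list taken for genes that had several. When summits at small structured RNA genes were left out, 26 such genes were left, of which 24 were higher and 1 lower. With the mean over a gene's summits per list in place of the highest, 23 of these 26 were higher and 2 lower. The gene vha-16 had 1 summit per list, so its own value is the same under each rule.

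The 3 peaks of vha-16 did not lie at the same place. The peak of list 2 (5080135 to 5080401) lay wholly within the peak of list 3 (5080053 to 5080502), and their summits were 169 bp apart. The peak of list 1 (5080896 to 5081122) overlapped neither, with a gap of 393 bp to the peak of list 3 and of 494 bp to that of list 2. The summits stood at 46.2%, 12% and 19.1% of the gene span in lists 1, 2 and 3, counted from the low-coordinate end. Recurrence at vha-16 was thus by gene in 3 lists and by overlapping region in 2. Strand, exons and introns were not used here, so positions are given by coordinate and not by transcript.

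**Figure D1:**
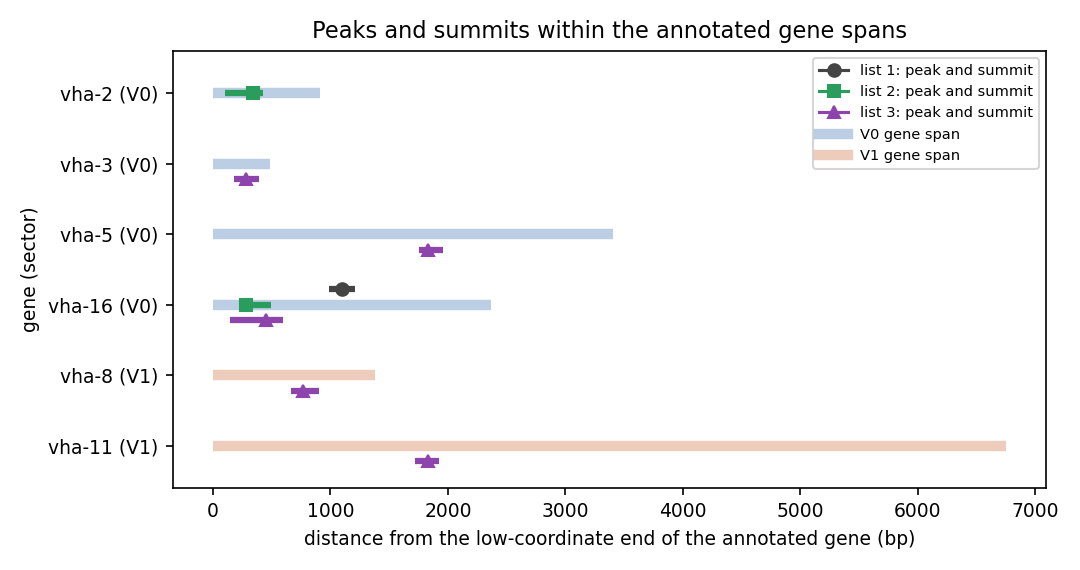
Peaks (coloured bars) and summits (symbols) of lists 1, 2 and 3 within each member's annotated span, in bp from its low-coordinate end; pale bars are the gene spans, blue for V0 and orange for V1. At vha-16 the peaks of lists 2 and 3 overlap and that of list 1 lies apart from both.

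Both c subunits among the members, which form the rotating proteolipid ring of V0, are encoded by short genes, and they had the most IP tags of the 8 summits. The gene vha-2 (III, 9782164 to 9783078) had 15 IP tags in list 2 (95% Poisson interval 8.4 to 24.7), at a summit at 9782509. Its input level was 3, the highest among the members and equal to 3 input tags over the summit. Its fold of 3.14 was the lowest of the 8 although its tag number was the highest, and its q was 0.225. At that input level 13 tags would have met the caller's p.

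The gene vha-3 (IV, 2315460 to 2315945) had 14 IP tags in list 3 (95% Poisson interval 7.65 to 23.5), at a summit at 2315743. Its input level of 1.21 equals 6 input tags within 1000 bp or 60 within 10000 bp. Its fold of 5.10 was the highest of the members, and its q was 3.82e-04. The summit had 5 tags more than the 9 that would have met the caller's p there. The peak covered 43% of this gene of 486 bp. The genes vha-2 and vha-3 both encode c subunits, and whether any reads matched both, and how such reads were assigned, was not examined here.

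The gene vha-5 (IV, 8303968 to 8307369) encodes an a subunit, the part of V0 through which protons pass, and is known for its role in the apical membrane of the hypodermis. Its summit in list 3, at 8305799, rested on 4 IP tags (95% Poisson interval 1.09 to 10.2) over input at the background. The fold was 3.32 and the caller's q was 1. With a p of 9.01e-04, it was the member closest to the calling threshold of 0.001. The next was vha-16 in list 2, with a p of 1.58e-04, and summits beyond the threshold are not listed.

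In the V1 sector, vha-8 (IV, 6791074 to 6792455) encodes the E subunit, part of the peripheral stalks that hold the catalytic head in place. Its summit in list 3, at 6791840, had 12 IP tags (95% Poisson interval 6.2 to 21) over an input level of 1, equal to 1 input tag over the summit. The fold was 4.90 and q was 0.00545. It had 5 tags more than the 7 that would have met the caller's p.

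The gene vha-11 (IV, 2307815 to 2314567) encodes the C subunit, which joins the stalks to the membrane sector. Its summit in list 3, at 2309644, had 5 IP tags over input at the background, with a fold of 3.94 and a q of 0.146. It lies next to vha-3, with 892 bp between the annotated genes, and the summits of both were in list 3 alone, 6099 bp apart. The peaks of neither touched the other gene.

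**Figure D2:**
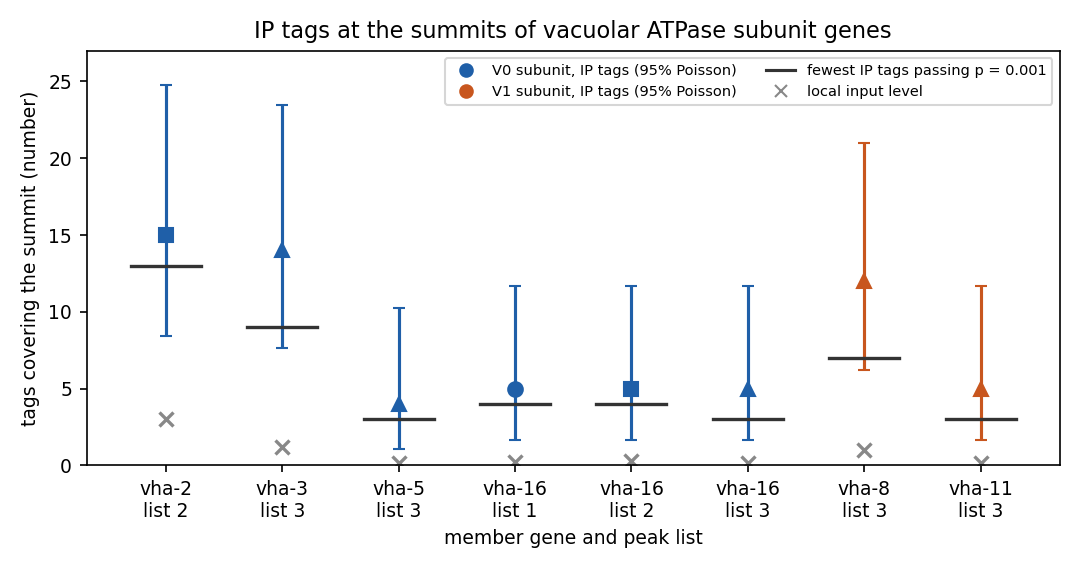
IP tags covering each member summit (symbols, with 95% Poisson intervals for counting error), by gene and list; black lines give the fewest IP tags that meet the calling threshold at that input level, and grey crosses the local input level. The summits of vha-2, vha-3 and vha-8 have 12 to 15 tags and the other 5 summits have 4 or 5.

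The sectors overlapped in every quantity. In list 3, the only list with summits of both, the V0 folds were 5.10 at vha-3, 3.94 at vha-16 and 3.32 at vha-5, and the V1 folds were 4.90 at vha-8 and 3.94 at vha-11. Over all lists the median fold was 3.89 for 6 V0 summits and 4.42 for 2 V1 summits, and with nothing added to the ratio the medians were 15.4 and 14.4, in the opposite order. With the Poisson bounds of the IP tags in place of the tag number, the fold intervals of all 8 summits ranged from 1.52 to 9.80 and shared the stretch from 2.99 to 5.01. These intervals hold the input level fixed, and since all of them overlap, they do not settle the order of the members by fold. No test was made, since the values exist only where a peak was called.

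The summits fell into 2 kinds by tag number. At vha-2, vha-3 and vha-8, the 3 shortest member genes at 915, 486 and 1382 bp, input tags were also recorded at or near the summit. At vha-5, vha-11 and vha-16, of 3402, 6753 and 2370 bp, the input was at or close to the background. At the input levels of vha-2, vha-3 and vha-8 the caller's p required at least 13, 9 and 7 IP tags, against 3 or 4 at the other summits. The calling thus sets a minimum of IP tags where input was recorded, and that part of the pairing is no finding. It sets no upper limit where the input was at the background, as at a summit of mbl-1 with 20 tags in list 3. The low tag numbers at vha-5, vha-11 and vha-16 were not tested. A link with gene length was not tested. The height at a summit counts tags over 1 position, and it is not a level of the transcript. The other 15 subunit and accessory genes had a median length of 1708 bp, against 1876 bp for the members.

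At 3 of the 8 member summits q was at most 0.05, at vha-16 in list 1 and at vha-3 and vha-8 in list 3. At 4 of 8 the input was at the background. Among 291 other summits in coding genes, outside small structured RNA genes, 62.5% had a q of at most 0.05 and 71.8% had input at the background. By list, 1 of 1, 0 of 2 and 2 of 5 member summits had such a q in lists 1, 2 and 3. The shares of the other summits were 86.2%, 70.6% and 46.8%. In list 3 the median fold was 3.94 for both 5 member summits and 141 other summits, with a median of 5 IP tags in each set. In list 2 the 2 member folds had a median of 3.49, against 4.57 for 85 other summits, and in list 1 the member fold of 4.67 stood against a median of 5.44 for 65 others. By fold among all summits of a list, vha-16 ranked 83 of 109 in list 1. In list 2, vha-16 ranked 127 and vha-2 145 of 151. In list 3, vha-3 ranked 85, vha-8 88, vha-11 and vha-16 tied at 116, and vha-5 154 of 199. These are descriptions, without a test.

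**Figure D3:**
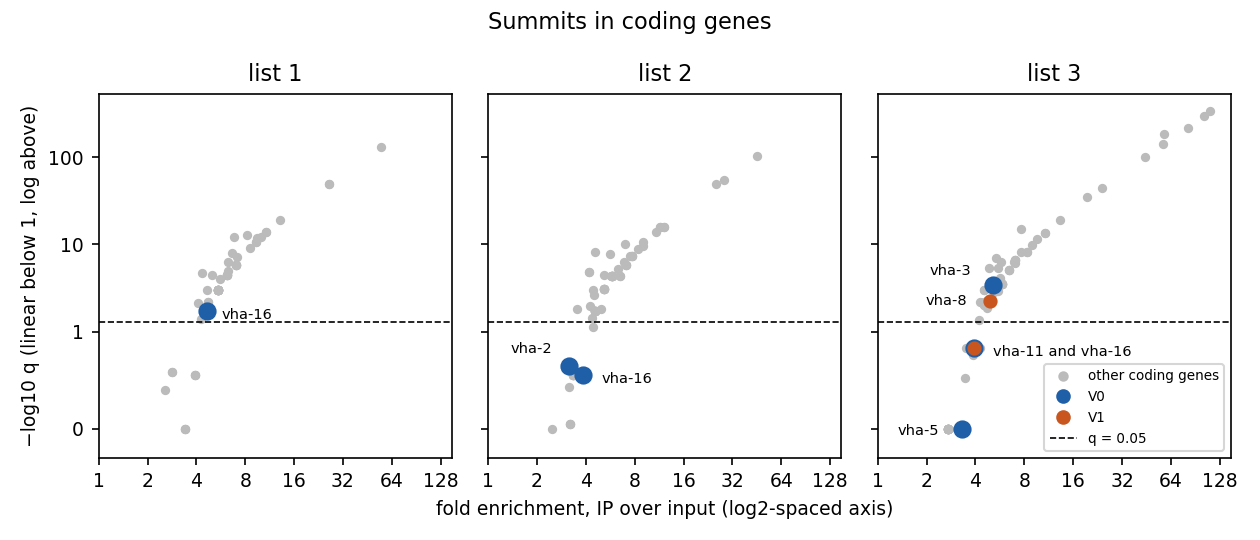
Fold enrichment against −log10 q of summits in coding genes, 1 panel per list, with members in blue (V0) and orange (V1), other coding genes in grey, and q = 0.05 as a dashed line. The members lie in the lower left of each panel, with vha-16 of list 1 and vha-3 and vha-8 of list 3 above the line; vha-11 and vha-16 of list 3 have the same values.

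Genes of piRNAs were left out of the annotation used here, so the overlaps and neighbours below do not cover them. Among the other annotated genes, none held a summit of a member apart from the member itself, and no member peak touched one. Overlaps of annotation were 55 bp between vha-5 and the coding gene F35H10.10 and 171 bp between vha-11 and the non-coding Y38F2AL.11, both outside the peaks. The genes next to the members had no summit, except that vha-3 and vha-11 adjoin each other. The c subunit gene vha-1 lies 400 bp from vha-2 and had no summit, and the peak of vha-2 ended 507 bp from it.

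The other 15 genes of the pump had no summit and no overlapping peak. They were the V0 genes vha-1, vha-4, unc-32, vha-6, vha-7 and vha-17, the V1 genes vha-9, vha-10, vha-12, vha-13, vha-14, vha-15 and vha-18, and vha-19 and vha-20. The genes vha-12 and vha-13, which encode the B and A subunits of the catalytic head, were among them. Besides vha-1, only vha-10, the G subunit gene, had a peak within 2000 bp, at 1327 bp in list 1 and inside other genes. At this depth, the lack of a peak does not show that RNA of these genes was not precipitated.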

How the data were processed

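The members and gene lists were chosen with earlier results of these data known. RNA was fragmented to 250 bp, per the labels' protocols. BWA, MACS2 and DiffBind, without versions, and the build WBcel235 are named in the submitters' processing notes. Peaks were called with MACS 2.1.0.20150420 for each IP against its own input, with 1 tag kept per position and replicates not pooled, per the file headers. The deposited signal is the pileup of IP tags, scaled to the smaller library. The deposited fold is the ratio of pileup to local input level, each with 1 added. The deposited −log10 p and −log10 q are the caller's values, although per the file headers no q was to be calculated. All of these are the authors' values for each summit.

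Pileup divided by the library ratio gave whole IP tags within 0.02 at all summits, and the input level was recovered from tags and fold. It was called background within 0.01 of the genome-wide level. The caller's p was recomputed from both within 0.05 on the log10 scale at 457 of 459 summits. Summits were placed in gene spans of a RefSeq table of WBcel235 (31563 genes without piRNA genes), in which all 21 fixed subunit symbols were found. The build was matched by name. Assignment and recovery of tags were tested on simulated data built with the same formulas, which checks the code and not the formulas. Named genes were all members with every peak, the other subunit genes, neighbours, and the 3 coding genes closest to vha-16 in mean fold, with a tie for the last place kept. The work used pandas 2.3.3, scipy 1.17.1, numpy 2.4.6 and matplotlib 3.10.9 under Python 3.11.15.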

Additional observations from a re-analysis of the deposited data

How the results depend on the processing

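The threshold of at least 5 IP tags, the other rules for ranking vha-16 by mean fold, and the use of stricter thresholds for the medians and for overlapping pairs, were chosen after seeing the data. At −log10 q of at least 5, 0 vha genes had a summit, and 0 had one in at least 2 lists. At q of at most 0.05 and at a fold of at least 4, 3 genes had a summit (vha-16, vha-3 and vha-8), 0 of them in at least 2 lists, and 0 pairs of peaks overlapped. Under both, the median fold was 4.88 for V0 and 4.90 for V1. These changes follow from the thresholds' own construction. With nothing added to the ratio, the median fold was 15.4 for V0 and 14.4 for V1, and the order of the sectors' medians turned. The input was at the background at 3 of 6 V0 summits and 1 of 2 V1 summits, and its part in this turn was not tested. Without replicate 3, 2 genes had a summit, and leaving out each replicate gave 2 to 6 genes, 1 gene in at least 2 lists, a V0 median of 3.85 to 4.31 and 0 to 1 overlapping pairs. The V1 median was 4.42 without replicate 1 or 2 and had no value without replicate 3. With summits required within 100 bp, 0 pairs were shared. At 5 or more IP tags, 5 genes had a summit and 1 had one in at least 2 lists. Assignment by any overlap gave the same 6 genes and 1 gene. No paired analysis was possible because no value is listed outside called peaks and no result comes from a test. Summits of 4 or 5 tags limit what absence from another list shows.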

Other observations

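Among coding genes with a summit in all 3 lists, those closest to vha-16 in mean fold over the 3 lists were unc-43, tbb-2 and, tied for the third place, rig-6 and unc-70. The highest summit per list was used. The gene unc-43, which encodes a calcium/calmodulin-dependent kinase, had 4, 6 and 5 IP tags in lists 1, 2 and 3 and a mean fold of 4.14 ± 0.378 (SD, n = 3). The beta-tubulin gene tbb-2 had 4.34 ± 0.145 (SD, n = 3) from 22, 26 and 17 tags, so a like fold rested on more tags over a higher input level. The gene rig-6, which encodes a neuronal cell adhesion protein of the immunoglobulin superfamily, had 4.44 ± 0.860 (SD, n = 3) from 6, 5 and 5 tags at the highest of its 2, 3 and 5 summits. The spectrin gene unc-70 had the same folds and tags at the highest of its 1, 1 and 2 summits.

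The mitochondrial ATP synthase, the rotary enzyme related to the vacuolar pump, had a summit at 1 of 10 annotated genes of its list. This was asg-2, with a fold of 3.32 from 4 IP tags over background input in list 2. Of 15 annotated tubulin genes, 5 had a summit, and all 5 had one in at least 2 lists. These counts stand beside 6 of 21 and 1 of 21 for the vacuolar ATPase genes and were not tested. The 6 vacuolar ATPase genes were chosen for holding a summit, so their count is no finding. The tubulin and ATP synthase lists were also chosen with earlier results of these data known, so they are no independent comparison. Among all annotated coding genes 0.831% had a summit and 0.41% had one in at least 2 lists.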
